A study of Sus scrofa with 15 samples.

Results

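The cytosolic ribosomal protein genes were examined in the livers of piglets given saline or lipopolysaccharide (LPS). Members were the genes whose pig Ensembl symbol begins with RPL or RPS and a digit, or is RPLP0, RPLP1, RPLP2 or RPSA, leaving out the S6 kinases and RPS19BP1. The rule found 51 members among 31908 genes in the count table, of which 15029 could be paired with a symbol. They comprise 45 of 77 proteins of the standard cytosolic ribosome, 21 of 46 for the large subunit and 24 of 31 for the small subunit, and 6 paralogs. The other 32 standard symbols, among them RPS6, RPS19 and RPL13A, were not paired with a row and are not analysed here. RPL10L, a paralog known from testis, had 0 counts in every library, which allows 3 counts per library at most. RPL29 had 1, 1 and 2 counts in the CON libraries and 2, 1 and 5 in the LPS libraries. Both fell below the filter on low counts, so 49 members were tested among 12774 genes.

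Male Duroc x Large White x Landrace piglets received sterile saline (CON group) or 80 μg/kg of LPS, a cell wall component of Gram-negative bacteria, into the peritoneum, and livers were taken after 4 h. The libraries are the input fractions of an m6A immunoprecipitation experiment, that is, polyadenylated, sonicated liver RNA sequenced without the antibody step, with 3 libraries per group. CON replicates 1 and 2 each have 2 sequencing entries in the labels but 1 column of counts, which was taken to be their sum. The labels do not say that each library is a separate animal, so the p-values below measure the spread between these libraries, which may be technical in part. Total counts were 5927348 to 10351491 in the CON group and 4348478 to 19967417 in the LPS group, the lowest in LPS replicate 1 and the highest in LPS replicate 3. ALB, the hepatocyte product albumin, lay between 12381 and 38011 CPM (a gene's counts over the library total scaled by edgeR's TMM method, expressed per 1000000), so the tissue label was borne out. LPS replicate 2 stood apart from the other LPS libraries. Leaving it out raised the genes called by edgeR's quasi-likelihood test (called meaning more than 1.5-fold apart with a Benjamini-Hochberg adjusted p under 0.05) from 7 to 512 higher and from 0 to 470 lower, whereas without LPS replicate 3 the counts were 39 and 19.

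Ribosomal proteins clothe the ribosomal RNA of the small subunit, which reads the messenger RNA, and of the large subunit, which joins the amino acids. Cells make them in near equal amounts, and their messenger RNAs carry a terminal oligopyrimidine (TOP) start through which the kinase mTORC1 sets their translation as a group. In the liver, the acute-phase response to LPS is carried largely by secreted proteins made on ribosomes of the endoplasmic reticulum. In whole liver, fewer cells of a type and less RNA per cell cannot be told apart.

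Compared with the CON group, the fitted level of 48 of the 49 tested members was above the CON level in the LPS group, by a small amount that no single gene's test separated from the spread between libraries. The median log2 fold change was 0.38, that is 1.30-fold, with the middle 50% of members between 0.27 and 0.49. Among all tested genes the median was 0.01, and 50.5% had a log2 fold change above 0. Neither direction gave a called member, which is close to the shares of all tested genes, 0.0548% called higher and 0.0% lower. At an unadjusted p below 0.05 edgeR gave 1 member, RPL7L1, against 6.18% of all tested genes in the same direction, and 0 members lower, against 6.33%. DESeq2 called 0 members, with 1.91% of its tested genes called higher and 0.995% lower, and limma-voom called 0 members, with 0.0157% and 0.0%.

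The fitted changes of the standard members were all above 0 but differed in size. All 44 tested standard genes had log2 fold changes between 0.05 (RPL5) and 0.82 (RPLP2), with an SD of 0.15 among genes. The 20 large subunit genes had a median of 0.42 and the 24 small subunit genes a median of 0.38. The 5 tested paralogs ranged more widely, from -0.26 to 0.97, with a median of 0.19. Among the 1389 other genes in the expression range of the middle 80% of members, 83.3 to 815 CPM, the median was 0.18 and the SD 0.94. The standard error of a member's log2 fold change had a median of 0.33, from 0.29 in RPL11 to 0.58 in RPL3L, so a typical member's value was about as large as its own error. Adjusted p-values (edgeR) ran from 0.356 for RPL7L1 to 0.997 for RPS27L.

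**Figure D1:**
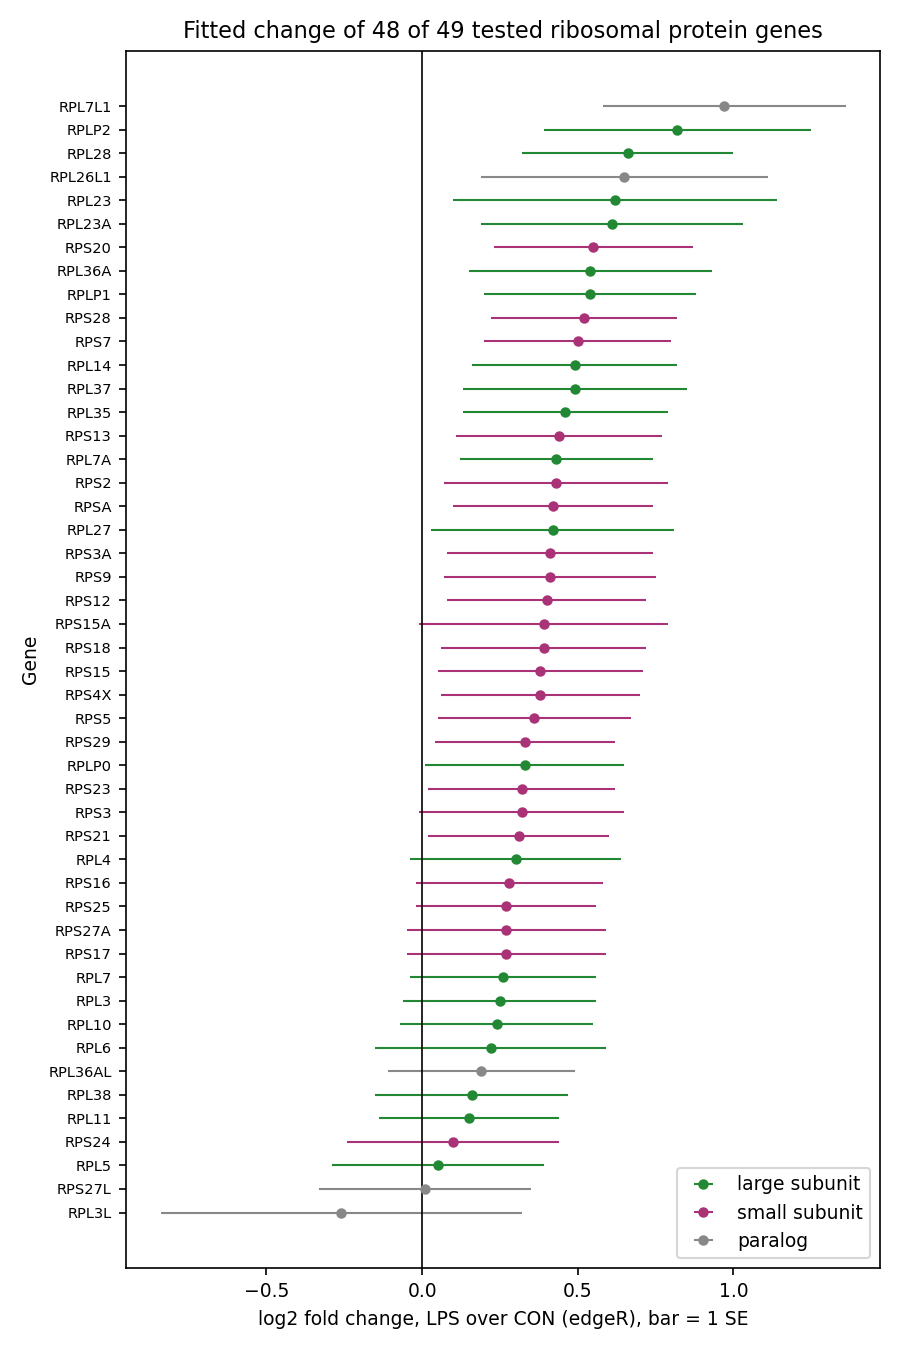
Fitted log2 fold change (LPS over CON, horizontal axis) of 48 of the 49 tested ribosomal protein genes, coloured by large subunit, small subunit or paralog, with bars of 1 standard error. All points but that of RPL3L lie right of 0, and the middle 50% lie between 0.27 and 0.49.

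The LPS libraries did not share the difference equally. Relative to the mean of the CON libraries, the median member stood at 0.34 on the log2 scale in LPS replicate 1, at 0.00 in LPS replicate 2 and at 0.68 in LPS replicate 3. The CON libraries stood between -0.03 and 0.03. LPS replicate 1 exceeded all 3 CON libraries in 35 members (71.4%) and LPS replicate 3 in 42 (85.7%), where 32.1% and 34.9% of all tested genes did so. In LPS replicate 2 only 8 members (16.3%) did, against 23.3% of all tested genes, and 6 members (12.2%) lay below every CON library, against 26.5% of all tested genes. LPS replicate 3 was the highest library in 36 of the 49 members and LPS replicate 1 in 10.

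Without LPS replicate 2 the members' median log2 fold change was 0.53, with 48 of 49 above 0, and without LPS replicate 3 it was 0.19, with 43 of 49 above 0. Of the members, the paralog RPL7L1 was called in the former fit and none in the latter (log2 fold change 1.28, edgeR adjusted p = 0.0455), in a fit that called 3.76% of all tested genes higher and 3.45% lower. In 30 members both remaining LPS libraries lay above all CON libraries, a relation met by 18.8% of all genes tested there.

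**Figure D2:**
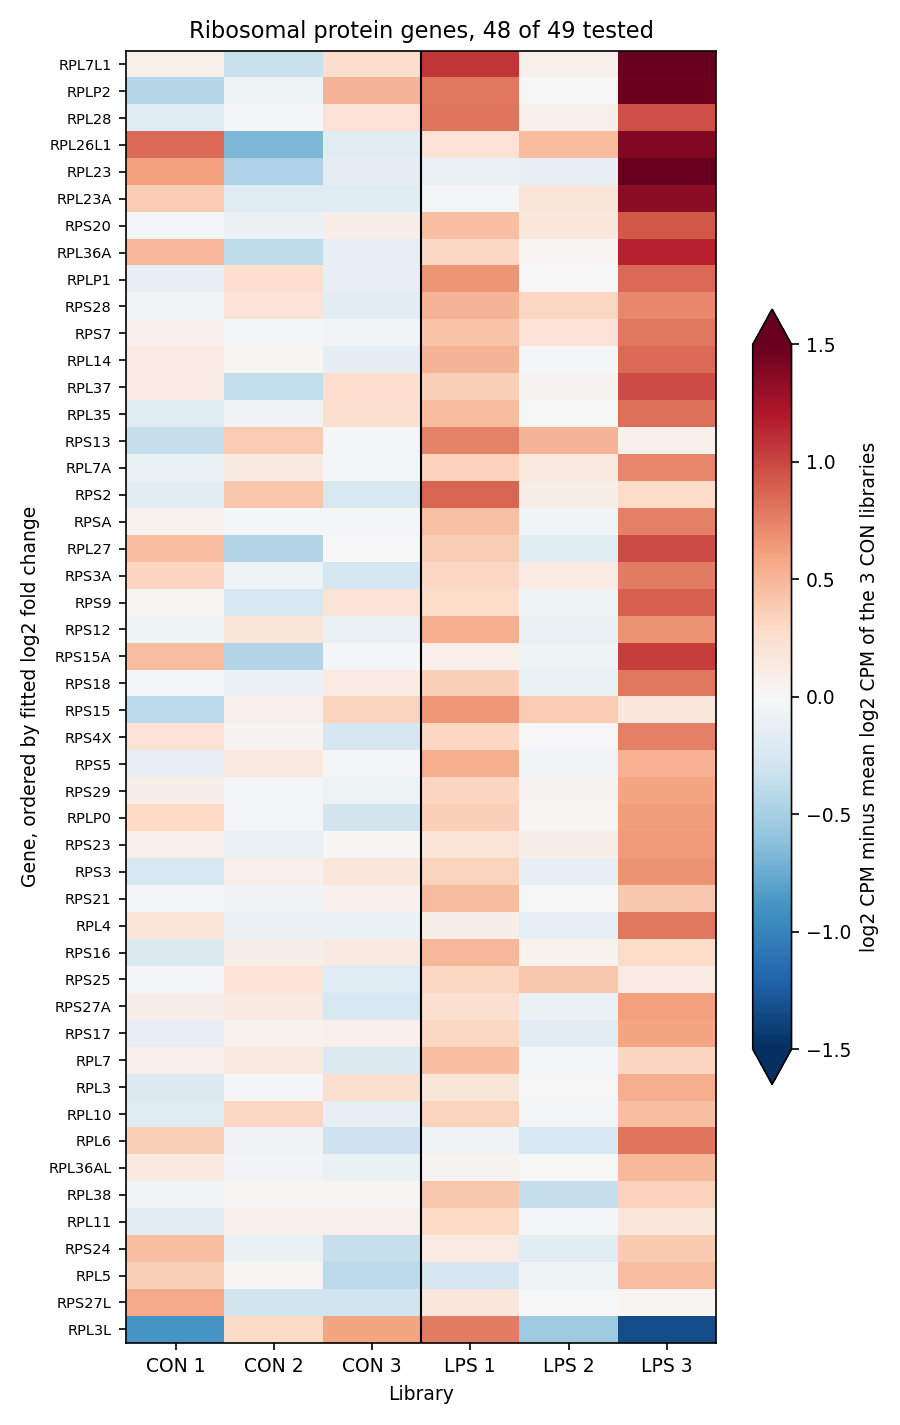
Log2 CPM of 48 of the 49 tested ribosomal protein genes (rows, ordered by fitted log2 fold change) in each library (columns), relative to the mean of the 3 CON libraries, with red above and blue below. LPS replicates 1 and 3 are red in most rows, and LPS replicate 2 is near white, with a median of 0.00.

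The members' share of all deposited counts does not depend on the choice of scaling factors. It was 1.91%, 1.94% and 1.70% in the CON libraries (mean 1.85% ± 0.133, SD, n = 3) and 2.50%, 1.98% and 2.14% in the LPS libraries (2.21% ± 0.269, n = 3). The groups did not overlap, but LPS replicate 2 lay only just above CON replicate 2. The 10 most abundant genes took between 20.9% and 30.1% of a library. With those genes left out of the total, the shares were 2.56%, 2.56% and 2.42% in the CON group and 3.17%, 2.55% and 3.06% in the LPS group, and LPS replicate 2 fell among the CON libraries. After TMM scaling the members' summed levels were 17648, 17927 and 17357 CPM in the CON libraries and 23742, 17814 and 29179 CPM in the LPS libraries. LPS replicate 3 had a TMM factor of 0.735, against 0.979 to 1.11 elsewhere, which raised its scaled values over its share of counts. Scaling to total counts alone moved the median of all tested genes to -0.12 and that of the members to 0.22, with 45 of 49 members above 0. With totals without the 10 most abundant genes these medians were -0.17 and 0.18, with 41 of 49 members above 0. The distance between both medians was 0.37 with TMM and 0.34 with total counts.

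**Figure D3:**
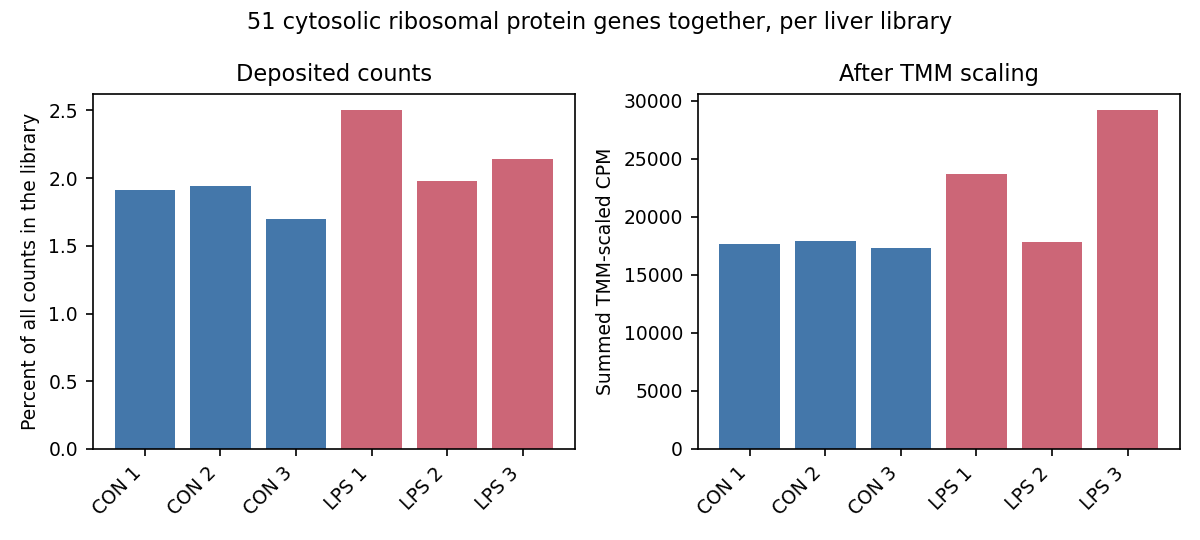
Sum over the 51 ribosomal protein genes in each library, as a percent of all deposited counts (left) and in TMM-scaled CPM (right), with CON libraries in blue and LPS libraries in red. LPS replicates 1 and 3 are the highest bars in both panels, in opposite order, and LPS replicate 2 reaches 1.98% and 17814 CPM.

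The acidic stalk proteins recruit the elongation factors to the large subunit. RPLP2 (ENSSSCG00000012842, chromosome 2, 435122 to 509818 in the deposited coordinates) had 506, 647 and 972 CPM in the CON libraries and 1185, 684 and 1891 CPM in the LPS libraries. LPS replicates 1 and 3 lay above the CON group and LPS replicate 2 inside it. Its log2 fold change of 0.82 (SE 0.43, edgeR adjusted p = 0.474) was the highest of the standard members, and it was 1.12 without LPS replicate 2 and 0.41 without LPS replicate 3. RPLP1, its partner in the stalk dimer, had 759, 982 and 761 CPM in the CON group and 1314, 830 and 1495 CPM in the LPS group (log2 fold change 0.54, SE 0.34, edgeR adjusted p = 0.55). RPLP0, which anchors the stalk on the ribosome, had 849, 681 and 573 CPM against 883, 699 and 1068 CPM, with a smaller log2 fold change of 0.33 (SE 0.32). The groups overlapped in all 3 genes. Taken as a share of the members' counts, the 3 stalk genes held 12.0%, 12.9% and 13.3% in the CON libraries and 14.2%, 12.4% and 15.3% in the LPS libraries, again with LPS replicate 2 within the CON range. Per kilobase of deposited length, RPLP2 (1986 CPM) and RPLP1 (1946 CPM) were the highest members, ahead of RPS7 (853 CPM), RPL23A (692 CPM) and RPLP0 (620 CPM), all as means over the 6 libraries. The deposited length joins every annotated exon of a gene, including rare ones (15511 bases for RPS24), so levels per length are low for such genes.

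Among the other large subunit genes, RPL28 had 518, 585 and 690 CPM in the CON libraries and 1034, 628 and 1164 CPM in the LPS libraries (log2 fold change 0.66, SE 0.34, edgeR adjusted p = 0.471). LPS replicate 2 was again the library inside the CON range. RPL23 owed its value to LPS replicate 3. It had 565, 268 and 334 CPM in the CON group and 343, 340 and 1115 CPM in the LPS group, and its log2 fold change of 0.62 (SE 0.52) became -0.17 without that library. RPL23A, which lies at the exit of the peptide tunnel, was alike, with 398, 266 and 268 CPM against 298, 347 and 774 CPM, and a log2 fold change of 0.61 that was 0.07 without LPS replicate 3. RPL7A had 718, 847 and 756 CPM in the CON group and 979, 854 and 1285 CPM in the LPS group. It was the 1 large subunit gene whose LPS libraries all lay above all CON libraries (log2 fold change 0.43, SE 0.31), though LPS replicate 2 exceeded CON replicate 2 by little.

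RPL5 and RPL11 carry the 5S ribosomal RNA into the large subunit and, when free of the ribosome, bind MDM2, the inhibitor of p53. They were at the low end of the standard members. RPL5 had 346, 276 and 205 CPM in the CON libraries and 226, 256 and 371 CPM in the LPS libraries (log2 fold change 0.05, SE 0.34, edgeR adjusted p = 0.974), with the groups interleaved, and its sign turned with several scalings (-0.14 with total counts). RPL11 had 201, 237 and 236 CPM against 276, 222 and 252 CPM, with a log2 fold change of 0.15 (SE 0.29) that was -0.02 when libraries were scaled to totals without the 10 most abundant genes. RPL10, which joins the large subunit last and completes its peptidyl-transferase site, had 451, 634 and 470 CPM in the CON group and 644, 500 and 698 CPM in the LPS group (log2 fold change 0.24, SE 0.31).

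In the small subunit, 4 of the 24 tested genes had all LPS libraries above all CON libraries, which with RPL7A makes 5 of the 49 members (10.2%), against 6.52% of all tested genes. In the opposite direction the count was 0 members, against 9.8% of all tested genes. Among the 1389 other genes in the members' expression range (83.3 to 815 CPM), the shares were 9.86% above and 10.2% below. The share of members above was thus close to that of other genes as abundant. RPS20, on the head of the subunit, had 726, 690 and 789 CPM in the CON group and 1004, 820 and 1402 CPM in the LPS group (log2 fold change 0.55, SE 0.32, edgeR adjusted p = 0.524). RPS7 (ENSSSCG00000031088), which like RPL5 and RPL11 can bind MDM2, had 543, 512 and 504 CPM against 699, 603 and 896 CPM (log2 fold change 0.50, SE 0.30). Its CON libraries lay close together, and LPS replicate 2 was the lowest LPS library. RPS28 had 123, 146 and 114 CPM in the CON libraries and 181, 157 and 210 CPM in the LPS libraries, with a log2 fold change of 0.52. RPS23, of the decoding centre, had 108, 95.9 and 104 CPM against 117, 109 and 159 CPM, with a log2 fold change of 0.32 and a gap to the CON group that is small in LPS replicates 1 and 2.

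RPSA, also known as the laminin receptor precursor, had 588, 557 and 557 CPM in the CON group and 770, 551 and 961 CPM in the LPS group (log2 fold change 0.42, SE 0.32, edgeR adjusted p = 0.628). Here LPS replicate 2 was below the whole CON range. RPS3, at the entry of the messenger RNA channel, had 361, 450 and 479 CPM against 537, 392 and 680 CPM (log2 fold change 0.32, SE 0.33). RPS24 was the lowest of the small subunit, with 438, 300 and 252 CPM in the CON libraries and 350, 286 and 421 CPM in the LPS libraries, a log2 fold change of 0.10 (SE 0.34) and -0.07 with scaling to total counts. The remaining small subunit genes had log2 fold changes of up to 0.44 (RPS13). RPS13, RPS15 and RPS25 departed from the usual order of libraries, since LPS replicate 3 was their lowest LPS library. In RPS13 the LPS libraries had 144, 123 and 90.5 CPM, and in RPS15 they had 633, 525 and 451 CPM.

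The paralogs are copies that differ in sequence from the standard protein and are mostly expressed at lower levels or in particular tissues. RPL7L1 (ENSSSCG00000026472, chromosome 7, 37933535 to 37953078), a relative of RPL7 whose yeast counterpart acts in assembly of the large subunit, had 42.4, 31.9 and 48.2 CPM in the CON libraries and 84.6, 42.4 and 113 CPM in the LPS libraries. LPS replicate 2 equalled CON replicate 1 to the digits given, while the other LPS libraries were well above the CON group. The log2 fold change was 0.97 (SE 0.39, edgeR adjusted p = 0.356), the highest of all members. RPL7 itself had 237, 249 and 194 CPM against 309, 223 and 281 CPM, with a log2 fold change of 0.26. RPL26L1 had 52.6, 18.4 and 26.0 CPM in the CON group and 34.0, 40.7 and 76.9 CPM in the LPS group (log2 fold change 0.65, SE 0.46), with CON replicate 1 above LPS replicates 1 and 2. RPS27L, a p53 target in human cells, had 33.5, 18.7 and 18.4 CPM against 25.5, 22.7 and 23.0 CPM (log2 fold change 0.01, SE 0.34). RPL36AL, nearly identical to RPL36A, had a log2 fold change of 0.19 and RPL36A one of 0.54, and the way reads shared between such copies were counted is not given, so their separate values are uncertain. RPL3L, a muscle form of RPL3, was the least expressed tested member, with 46, 59 and 115 counts in the CON group and 59, 32 and 44 in the LPS group (log2 fold change -0.26, SE 0.58).

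**Figure D4:**
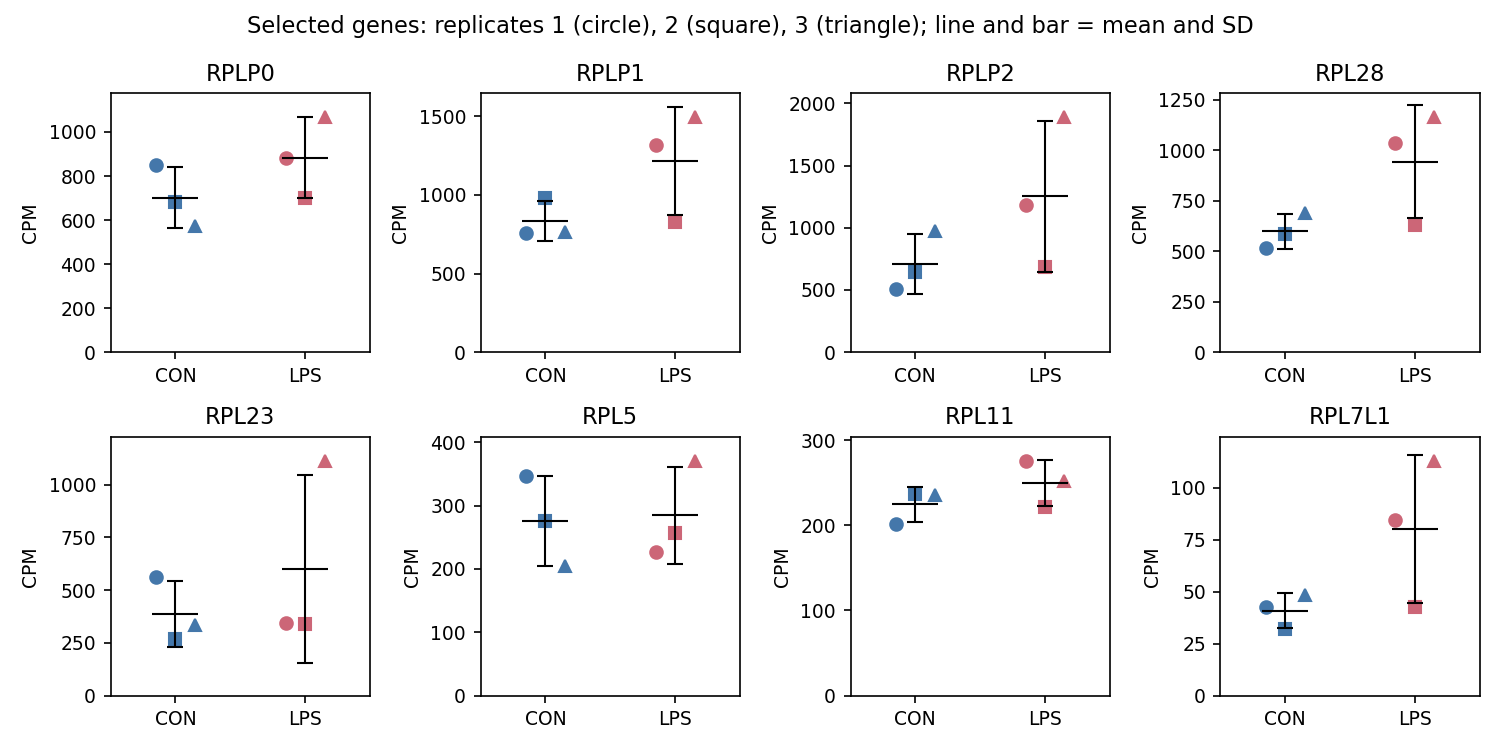
TMM-scaled CPM of 8 ribosomal protein genes in each library (points, replicates 1, 2 and 3 as circle, square and triangle), with the group mean (line) and SD (bar, n = 3). RPLP2, RPL28, RPL11 and RPL7L1 show LPS replicate 2 inside the CON range and LPS replicates 1 and 3 above it, by little in RPL11. RPL23 is highest in LPS replicate 3, and in RPL5 the groups are interleaved.

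Members also differed among libraries in ways that the groups do not describe. CON replicate 1 was the highest CON library in 20 of the 49 members. Across members, its deviations from the CON mean went with those of LPS replicate 3 (Spearman's rho 0.39, Pearson's r 0.53, n = 49 genes, which share their libraries and are not independent), as in RPL23, RPL26L1, RPL27 and RPS15A. Those of CON replicate 2 went with LPS replicate 1 (rho 0.45, r 0.37), and both relations share the CON mean. RPL27 had 298, 160 and 216 CPM in the CON group and 281, 192 and 429 CPM in the LPS group, and RPS15A had 428, 229 and 305 CPM against 326, 298 and 639 CPM. LPS replicates 1 and 3, the libraries with the higher members, ranked the members differently (rho -0.06, r -0.14). The summed large subunit counts divided by the summed small subunit counts gave 1.04, 0.929 and 1.05 in the CON libraries and 0.932, 0.957 and 1.23 in the LPS libraries, so that LPS replicate 3 alone lay above the CON range. RPS2, at the messenger RNA entry site, made up 9.12%, 13.3% and 8.73% of the members' counts in the CON group and 13.8%, 10.8% and 7.47% in the LPS group, with replicates of both groups spread alike. Shorter genes had somewhat larger fold changes both among members (rho -0.27, n = 49) and among all tested genes (rho -0.12, n = 12774). For deposited lengths under 1000 bases the median was 0.47 in 16 members and 0.16 in 443 other genes.

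Genes that make ribosomes or work with them were read from the same fit. The 112 tested ribosome biogenesis factors, which process ribosomal RNA and assemble the subunits, had a median log2 fold change of 0.58, with 105 above 0, 17 at an unadjusted p below 0.05 and above 0 (6.18% of all tested genes were) and 0 called. GRWD1, a chaperone of RPL3, had 36.9, 31.7 and 62.6 CPM in the CON libraries and 113, 54.2 and 154 CPM in the LPS libraries (log2 fold change 1.29, SE 0.44, edgeR adjusted p = 0.276). DDX56, a nucleolar helicase, had 34.9, 32.2 and 96.1 CPM against 186, 65.1 and 262 CPM (1.65, SE 0.58). Relative to the CON mean, their medians in the CON libraries were -0.04, -0.29 and 0.30, and those in the LPS libraries were 0.57, -0.17 and 1.14, so that LPS replicate 2 lay inside the CON range and the CON libraries lay further apart than for the ribosomal proteins. Without LPS replicate 2, 10 of them were called higher, in the fit that called 3.76% of all tested genes higher, and without LPS replicate 3 their median was 0.22 with 0 called. RNA polymerase I, which transcribes the ribosomal RNA genes, and its factors had a median of 0.36 over 15 genes, 13 of them above 0, and of 0.13 without LPS replicate 3. POLR1D, a subunit shared with RNA polymerase III, had 48.7, 95.3 and 55.9 CPM in the CON group and 231, 108 and 190 CPM in the LPS group, without overlap (log2 fold change 1.41, SE 0.40, edgeR adjusted p = 0.221).

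Translation initiation factors had a median of 0.38 (31 of 35 above 0), and elongation factors and other TOP messages one of 0.51 (13 of 15 above 0), with 0 called in both. Without LPS replicate 3 these medians were 0.18 and 0.19. EIF3B, a scaffold subunit of the initiation factor that binds the small subunit, had 133, 144 and 192 CPM in the CON libraries and 336, 187 and 390 CPM in the LPS libraries (log2 fold change 0.96, SE 0.36, edgeR adjusted p = 0.329). EEF1D, an exchange factor for the elongation factor that brings aminoacyl-tRNA, had 248, 416 and 384 CPM against 745, 500 and 451 CPM (0.69, SE 0.35). All 3 of its LPS libraries lay above the CON libraries. FAU and RACK1, ribosomal proteins whose symbols lie outside the rule, had log2 fold changes of 0.46 (SE 0.36) and 0.39 (SE 0.32). RACK1 had 328, 357 and 305 CPM in the CON group and 459, 315 and 524 CPM in the LPS group, again with LPS replicate 2 inside the CON range.

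The genes of mTORC1, the S6 kinases and translation control, which act on ribosomal protein synthesis, were divided, with 24 of 40 above 0, a median of 0.07 and 0 called. Without LPS replicate 2 the median was 0.21, with 3 genes called lower, in the fit that called 3.45% of all tested genes lower. DEPTOR, an inhibitor bound to mTOR, had 13.2, 9.06 and 7.81 CPM in the CON group and 3.05, 7.03 and 1.71 CPM in the LPS group (log2 fold change -1.38, SE 0.53, edgeR adjusted p = 0.338). LAMTOR2, part of the complex that brings mTORC1 to lysosomes, had 39.0, 29.7 and 43.9 CPM against 87.0, 42.5 and 79.0 CPM (0.89, SE 0.35). In PPP1R15A, the stress-induced partner of the phosphatase that restores initiation, LPS replicate 3 had 191 CPM and the other 5 libraries 15.4 to 24.5 CPM.

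Mitochondrial ribosomal proteins, encoded in the nucleus but used in the mitochondrial ribosome, had a median of 0.30 (50 of 60 above 0, 0 called). MRPL20 had 61.5, 61.2 and 76.7 CPM in the CON libraries and 182, 95.4 and 153 CPM in the LPS libraries, without overlap (log2 fold change 1.11, SE 0.34, edgeR adjusted p = 0.242). The nuclear-encoded subunits of the respiratory chain had a median of 0.11 (38 of 59 above 0, 0 called), and their medians in LPS replicates 1, 2 and 3 were 0.10, -0.09 and 0.12. Without LPS replicate 2 the median was 0.19, and without LPS replicate 3 it was 0.00. No test compared these lists with the ribosomal proteins.

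**Figure D5:**
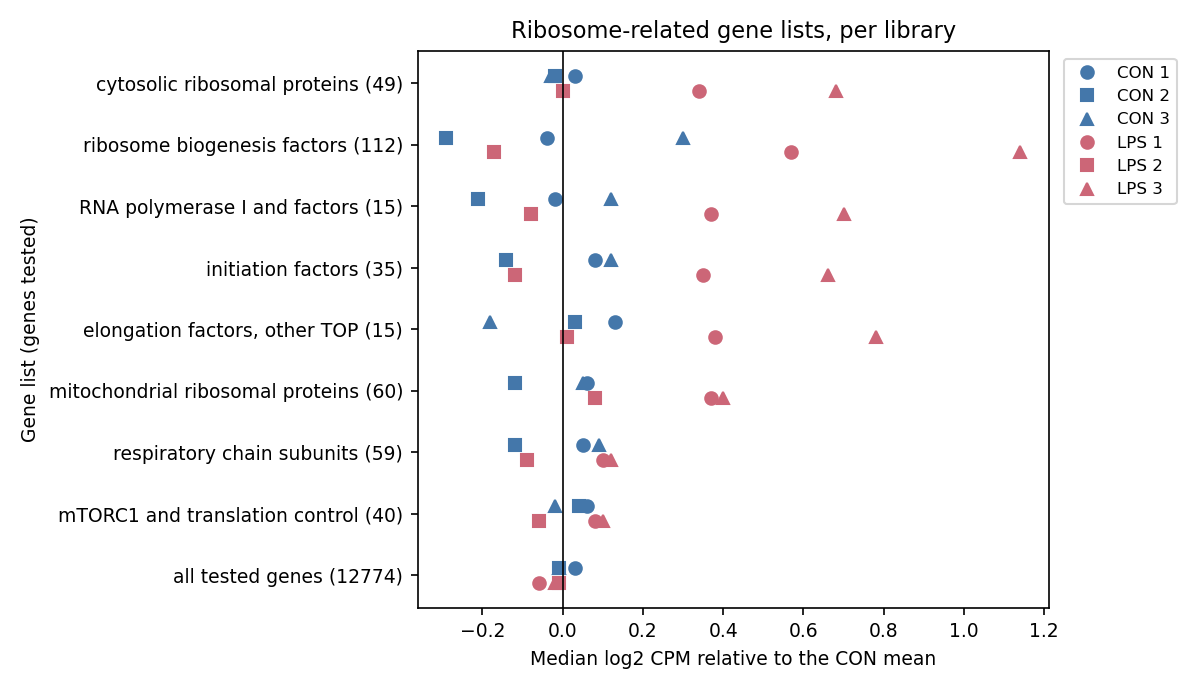
Median over each gene list (rows, with the number of genes tested) of log2 CPM relative to the CON mean, for each library (CON blue, LPS red, replicates 1, 2 and 3 as circle, square and triangle). For the lists of cytosolic ribosomal proteins, biogenesis factors, RNA polymerase I, initiation and elongation factors, LPS replicates 1 and 3 lie right of all CON libraries and LPS replicate 2 lies at or left of 0.01.

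Lists of cell type markers were read from the same fit without a test of any list, and their part in the ribosomal protein values was not tested. Of 15 neutrophil markers 9 were tested, 7 were above 0 and S100A8, a calcium-binding protein of neutrophils, was called higher (edgeR adjusted p = 0.0371). Their summed level was 38.6 to 66.0 CPM in the CON libraries and 119 to 358 CPM in the LPS libraries. S100A8 had 4, 2 and 4 counts in the CON libraries and 65, 31 and 376 counts in the LPS libraries, so it passed the filter through the LPS group alone, and its call was lost with limma-voom and without any 1 of the CON replicates or LPS replicate 1 (adjusted p of 0.125 to 0.543). LTF, also among the 7, passed in the same way, with 0.268, 0.0 and 0.989 CPM in the CON libraries and 1.96, 1.31 and 8.6 CPM in the LPS libraries. For both genes the filter thus favoured a value above 0. The filter asks for enough counts in 3 libraries, and MMP9, S100A12 and PADI4, also among the 7, needed LPS libraries to pass. Their lowest CON values were 0.983, 0.781 and 0.312 CPM. Below the filter, MPO had 1.16, 0.781 and 0.989 CPM in the CON group and 1.09, 0.491 and 0.273 CPM in the LPS group. MMP8 had 0.0 CPM in every CON library and 3.92, 0.818 and 18.5 CPM in the LPS group. The 7 of 9 thus depends in part on the filter. Of 9 red blood cell and platelet markers 3 were tested, the red blood cell genes HBB, AHSP and ALAS2, all above 0. No platelet marker was tested. The sums over all markers paired with a row were 73.0 to 100.3 CPM in the CON libraries and 91.0 to 329 CPM in the LPS libraries. HBB, beta globin, followed the order of the ribosomal proteins, with 52.5, 57.3 and 60.0 CPM in the CON group and 192, 72.6 and 246 CPM in LPS replicates 1, 2 and 3 (log2 fold change 1.59, SE 0.43, edgeR adjusted p = 0.218). Kupffer cell and macrophage markers were below 0 in 10 of 10 tested genes (median -0.48), with sums of 1995.5 to 3247 CPM and 1376 to 2301 CPM. Hepatocyte markers were below 0 in 8 of 11 (median -0.31), with sums of 65495 to 78398 CPM and 41889 to 77360 CPM. Markers of endothelial cells were below 0 in 7 of 8, of T and NK cells in 9 of 11, and of B and plasma cells in 5 of 6. The joint list of cholangiocyte and stellate cell markers was divided, with 6 of 10 below 0. The cholangiocyte markers KRT7, EPCAM and SOX9 were among the 4 above 0 (log2 fold changes 1.61, 1.42 and 0.91). COL1A2 was among the 6 below 0 (-0.75). In each of these lists 0 genes were called. None of the marker genes paired with a row was at 0 in every library.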

How the data were processed

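The deposited table, made by the authors, holds unnormalized read counts for the input RNA of each library, with each gene's coordinates and exon length. The submitters' processing notes name cutadapt 1.9.3 and HISAT2, and the genome builds galGal6 and hg38, neither of them a pig build. The counting program, the pig build, and the treatment of strand and of reads matching several copies are not stated in the paper, labels or file header (not given in the sources used here). The library kit was directional. Symbols came from a table of gene names, and no sequence is printed. The members and gene lists were chosen with earlier results of these data known.

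Counts were analysed with edgeR 4.0.16 in R 4.3.3 (filterByExpr, minimum count 10, TMM, robust glmQLFit and glmQLFTest, Benjamini-Hochberg adjustment over 12774 genes), and scripts were tested on simulated data. The SE was computed as |log2 fold change| / √F, F being the quasi-likelihood statistic. CPM are TMM-scaled. Named genes were the 5 highest and 5 lowest members by log2 fold change, the 5 highest per length, genes chosen by role, the paralogs, and up to 4 genes with the smallest p in each list. RPL6, RPL7, RPL7A, RPL27, RPL36A, RPL38, RPS2, RPS13, RPS15, RPS15A, RPS20, RPS23, RPS25 and RPS28 were named after their values were seen. Alternatives were other scalings and filters, DESeq2 1.42.0, limma-voom (limma 3.58.1), a replicate block, no fold threshold and leaving out each library. The m6A immunoprecipitates were not analysed here, and the values of 1 member are not reported here.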

Additional observations from a re-analysis of the deposited data

How the results depend on the processing

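The members' median log2 fold change stayed above that of all tested genes in every alternative run, by 0.32 to 0.38 except without LPS replicate 2 (0.55) and without LPS replicate 3 (0.22). Members called higher were 0 in each alternative, and 0 to 1 when libraries were left out. Members with all LPS libraries above all CON libraries were 5, 4 with totals without the 10 most abundant genes, and, with fewer libraries to separate, 14, 10 and 13 without CON replicates 1, 2 and 3 (11.2%, 9.44% and 12.0% of all tested genes) and 5, 30 and 8 without LPS replicates 1, 2 and 3 (8.53%, 18.8% and 12.8%). The difference in ribosomal protein share of counts (0.359 percentage points) was 0.211 to 0.473 on leaving out libraries.

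Over all genes, 7 were called higher and 0 lower. The counts were 11 and 1 with total counts, 8 and 1 with RLE factors, 536 and 349 without the filter on low counts, 0 and 0 with at least 10 counts in every library, 275 and 143 with DESeq2, and 2 and 0 with limma-voom. They were 0 and 0 without any 1 of the CON replicates, 1 and 0 without LPS replicate 1, 512 and 470 without LPS replicate 2, and 39 and 19 without LPS replicate 3. With the replicate number as a replicate block they were 42 and 9, with 0 members. Same-numbered libraries deviated with correlations of -0.239, 0.219 and 0.0289, and differently numbered ones with -0.251 to 0.220. With 3 libraries per group these values cannot decide whether the numbers pair the libraries. The causes of the differences in numbers of called genes between settings were not tested.

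Signs turned in members that were not called. With totals without the 10 most abundant genes, values were -0.16 in RPS27L and RPL5, -0.10 in RPS24, -0.03 in RPL38, -0.02 in RPL11 and -0.01 in RPL6 and RPL36AL. With total counts they were -0.12 in RPS27L, -0.14 in RPL5 and -0.07 in RPS24, and with upper quartile factors -0.04 in RPS27L and -0.02 in RPL5. RPS27L was at -0.01 without the filter and -0.02 with at least 10 counts in every library. On leaving out libraries the ranges were -0.13 to 0.35 in RPS27L, -0.14 to 0.42 in RPL6, -0.04 to 0.35 in RPS24, -0.02 to 0.65 in RPS15A, -1.01 to 0.14 in RPL3L, -0.18 to 0.24 in RPL5 and -0.17 to 0.99 in RPL23. RPL29 had too few counts to test in every library, also in the deepest, for a reason that was not tested. RPL3L had the largest standard error of the tested members (0.58).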
